A study of Drosophila melanogaster with 2 samples.

Results

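Lola-RJ-GFP binding was described at 50 homeobox transcription factor genes outside the Hox complexes. The members were taken by name, all 50 names matched a gene in the Ensembl gene models, and they were 50 of 13945 protein-coding genes. They were 6 segmental and posterior genes, 13 neural genes, 12 head and eye genes, 11 limb and other imaginal genes, 6 mesoderm genes and 2 genes for Hox cofactors. The data came from chromatin immunoprecipitation sequencing (ChIP-seq) of whole Drosophila melanogaster embryos of both sexes aged 0 to 12 h, from the transgenic strain lola-J-GFP. That strain stably expresses the Lola-RJ isoform with GFP at its C terminus. The description in the labels gives an antibody against GFP, whereas the antibody field names lola, so whether the peaks are of the tagged isoform alone is not settled by the labels. All samples carried this transgene, and their source label gives an insertion targeting D. melanogaster lola. The 2 biological replicates, labelled 1 and 3, made up a single group, so binding was compared between genes and between replicates and no second genotype, age or untagged embryo was compared. The labels do not say what drives the transgene or whether the untagged protein is still present, and tissues were pooled, so binding in a few cells and weak binding in many cannot be told apart.

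A homeobox encodes the homeodomain, a DNA-binding fold found in many transcription factors that give cells their position and identity. Outside the Hox complexes such genes act in restricted regions of the embryo, for example in segment borders, neurons, the head and eye, limbs and the heart, and many are controlled by enhancers that lie far from the start of transcription. Several are tandem duplicates that share such control DNA. Lola (longitudinals lacking) is a BTB zinc-finger factor with many splice forms that is needed for axons to find their way.

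The positions below are the summits of peaks called by the authors on dm6. The IDR-thresholded list (IDR, irreproducible discovery rate) held 6154 peaks, identical to the top 6154 of the pooled list by signal, and the pooled list and the list of each replicate held 30000 each. Signal is the authors' value per peak on a scale that the sources used here do not give, and its values order and describe the peaks of a single list. A promoter summit lay within 500 bp of a start site (TSS) of the gene's own coding transcripts, and a locus was the span of the gene with 2 kb on each side. Each summit was counted on its own, also where peaks overlapped or adjoined, as in inv and Lim3 and near vvl, en and caup. Counts of summits are therefore not counts of separate sites. Read depth was unknown for all lists. All shares are descriptions without a test, because genes and peaks are not replicates. Wilson 95% intervals cover counting error only.

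The DNA under 8 of the sites is shown because these sites carry the contrasts described below. They are the promoter summits of tin, exd and oc, the strongest summits of hth, Awh, Lim1 and ct, which are among the members with most summits, and the strongest site near any member, which lay between eyg and toe. Each is the 101 bp centred on the summit, 5′ to 3′ on the plus strand of the dm6 sequence (NCBI release 6), with every TAATTA (a core that many homeodomains recognise) and every GAGAG or its complement CTCTC (the core bound by GAGA factor) in capitals. The windows are 3R:21378706-21378806 at tin, X:15992133-15992233 at exd, X:8650958-8651058 at oc, 3R:10537261-10537361 at hth, 3L:3862600-3862700 at Awh, X:8777258-8777358 at Lim1, X:7618345-7618445 at ct and 3L:12457442-12457542 between eyg and toe.
tin promoter: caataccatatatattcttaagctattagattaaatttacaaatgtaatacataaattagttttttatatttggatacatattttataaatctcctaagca
exd promoter: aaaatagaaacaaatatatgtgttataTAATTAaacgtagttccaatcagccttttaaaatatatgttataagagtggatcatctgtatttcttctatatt
oc promoter: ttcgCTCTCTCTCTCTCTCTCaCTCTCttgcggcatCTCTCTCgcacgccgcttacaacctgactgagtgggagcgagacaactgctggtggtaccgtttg
hth intron: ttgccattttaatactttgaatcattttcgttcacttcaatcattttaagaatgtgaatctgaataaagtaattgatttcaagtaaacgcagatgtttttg
Awh downstream: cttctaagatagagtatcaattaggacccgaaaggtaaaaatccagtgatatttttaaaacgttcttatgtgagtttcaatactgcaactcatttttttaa
Lim1 intron: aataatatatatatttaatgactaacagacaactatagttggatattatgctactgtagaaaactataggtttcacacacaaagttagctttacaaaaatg
ct intron: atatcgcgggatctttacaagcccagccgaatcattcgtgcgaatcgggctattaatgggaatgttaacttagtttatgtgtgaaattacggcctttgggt
eyg and toe gap: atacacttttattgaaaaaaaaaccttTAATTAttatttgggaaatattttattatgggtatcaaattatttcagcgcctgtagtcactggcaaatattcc

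Most of these windows were rich in A and T. The A/T share was 81.2% at tin, 77.2% at exd, 73.3% at hth, 70.3% at Awh, 74.3% at Lim1, 56.4% at ct and 73.3% between eyg and toe, whereas it was 43.6% at oc. The oc window was the exception, with 10 overlapping matches to GAGAG or its complement. Over the 52 summits in member loci the median A/T share of the 101 bp was 71.8%, against 71.3% over the 6102 other IDR-thresholded summits. TAATTA stood in 8 of the 52 windows (15.4%), against 12.1% of the other windows. GAGAG on either strand stood in 6 (11.5%), against 7.26%. Both motifs stood in the windows of caup, B-H2 and 1 hth summit, and a match is a description of the letters, not a binding site.

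Few homeobox genes had a strong promoter summit. A promoter summit from the IDR-thresholded list was present at 4 of 50 members (8%, Wilson 95% interval 3.15% to 18.8%), against 22.9% of all coding genes. Members were long, with a median of 12.6 kb, against 2.17 kb over all coding genes, and 44 of the 50 were in the 3 longest of 10 length classes. Other genes of the same length classes had one in 29.7% of cases, and other genes with as many coding TSSs in 25.6%. The members' share lay below each of these. Within 250 bp of a TSS 1 member had a summit, against 18.2% of all coding genes, and within 1000 bp 6 members, against 25.7%. With the 3077 strongest peaks 2 members had a promoter summit, against 13.5%.

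The 4 genes with a promoter summit were tin, so, oc and exd, and in each the summit lay upstream of the TSS. tin (tinman, FBgn0004110), which specifies the heart and other dorsal mesoderm, held the strongest summit of any member locus, 221 bp upstream of its TSS (3R, summit 21378756, signal 1196.2, rank 308 of 6154). It ranked 242 in replicate 1 with a signal of 667.9 and 412 in replicate 3 with 535.7, so both replicates placed it among the strongest peaks. so (sine oculis), a Six-family gene of the eye, held a summit 353 bp upstream (2R, summit 7418997, signal 639.5), at rank 777 in replicate 1 and 1360 in replicate 3. The promoter summits of exd and oc were weaker and less even between replicates. That of exd (extradenticle), which encodes a partner of Hox proteins, lay 285 bp upstream (X, summit 15992183, signal 167.1). It ranked 4145 in replicate 1 and had no summit within 100 bp in replicate 3, whose full list held 1 elsewhere within 500 bp of an exd TSS. The IDR-thresholded summit stood nearer to the start of CG46312, at 209 bp, than to that of exd. That of oc (ocelliless, also called orthodenticle), a head gap gene, lay 327 bp upstream (X, summit 8651008, signal 150.2) and ranked 5433 in replicate 1 and 6786 in replicate 3.

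Over whole loci the members held a summit about as often as other genes of their length. A summit lay in the locus of 25 of 50 members (50%, Wilson 95% interval 36.6% to 63.4%), against 38.2% of all coding genes and 54.2% of other genes of the same length classes. With the gene span alone 16 members had a summit, against 12.3% of all coding genes and 33.9% at matched length. With 5 kb on each side it was 30 members, against 51.8% and 64.0%. In these 3 windows the members' share was close to that at matched length, or slightly below it. Other backgrounds placed it higher. Other genes with as many coding TSSs had a locus summit in 41.5% of cases, below the members' 50%. Without summits at the promoters of other genes 23 members had one (46%), against 18.5% of all coding genes and 39.5% at matched length. Fewer members held several summits, with 9 at 2 or more (18%), against 14.5% of all coding genes and 29.8% at matched length. With the 3077 strongest peaks 14 members had a locus summit (28%), against 24.8% of all coding genes and 37.5% at matched length. Among 16 members with a single summit, that of ro stood at the promoter of a neighbour.

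**Figure D1:**
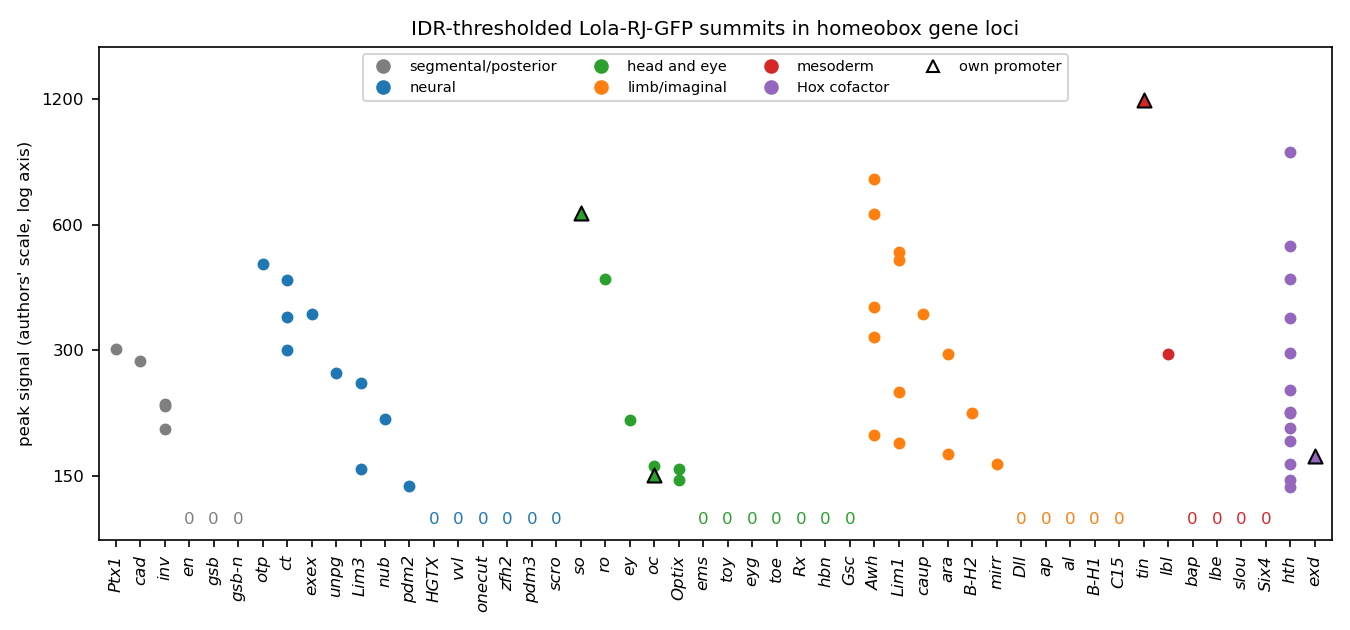
Signal of each of the 52 IDR-thresholded summits in the member loci (vertical log axis, authors' scale), one column per gene, grouped and coloured by role; triangles mark summits within 500 bp of the gene's own TSS and 0 marks the 25 genes with none. Signals ran from 141.1 to 1196.2, 4 summits are promoter summits, and hth alone holds 13.

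The 52 summits in these loci lay mostly in introns and outside promoters. First introns held 21 of them (40.4%), against 37.1% at matched length in other genes, and later introns held 14 (26.9%, against 19.7%). Own promoters held 4 (7.69%, against 24.5%) and promoters of another gene 1 (1.92%, against 11.0%). The 2 kb flanks held 4 summits upstream (7.69%, against 4.48%) and 7 downstream (13.5%, against 2.43%), and 1 lay in a coding exon, of otp. Neither UTR held any. Within 500 bp of any coding TSS lay 5 of the 52 (9.62%), against 40.7% of the 6102 other summits. Their signals were moderate, with a median of 245.3, against 268.6 in the rest of the list. The 5 near a TSS had a median of 444.4 and the 47 further away 240.8.

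Many of the summits nearest to these genes lay outside their loci. Of the IDR-thresholded summits, 98 had their nearest coding TSS in a member, and 56 of these lay outside every member locus. The other 42 lay in a member locus, and no such split was made for summits nearest to other genes. Nearer to a neighbour's TSS were the single locus summits of otp, lbl, cad, exd and ro, a Lim3 summit and several hth summits. By assignment to the nearest TSS 29 members (58%) were nearest to a summit, against 25.2% of all coding genes and 42.2% of other genes of the same length. The 98 lay a median of 10.4 kb from the TSS, against 1.10 kb for the 6056 summits nearest to other genes. These members had long stretches to themselves, with a median of 22.8 kb of DNA nearest to their TSSs, against 4.31 kb for other coding genes, so densities per Mb were compared within classes of distance.

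Summit density near members was low at the start site and high far from it. Within 500 bp of a member TSS it was 41.9 summits per Mb (3 summits), against 163 per Mb by the TSSs of other genes. Between 500 bp and 5 kb it was 34.7 per Mb (17 summits), against 36.9. Between 5 and 20 kb it was 82.3 per Mb (56 summits), against 32.7, and beyond 20 kb 52.5 per Mb (22 summits), against 10.4. The 56 summits between 5 and 20 kb were nearest to 23 members, of which hth had 6 and ems 5, and the 22 beyond 20 kb to 11 members, of which vvl had 6. Without hth, vvl and Awh, chosen after their values were seen, the densities were 72.4 and 39.5 per Mb in these classes. The DNA of other genes included the ends of the arms.

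**Figure D2:**
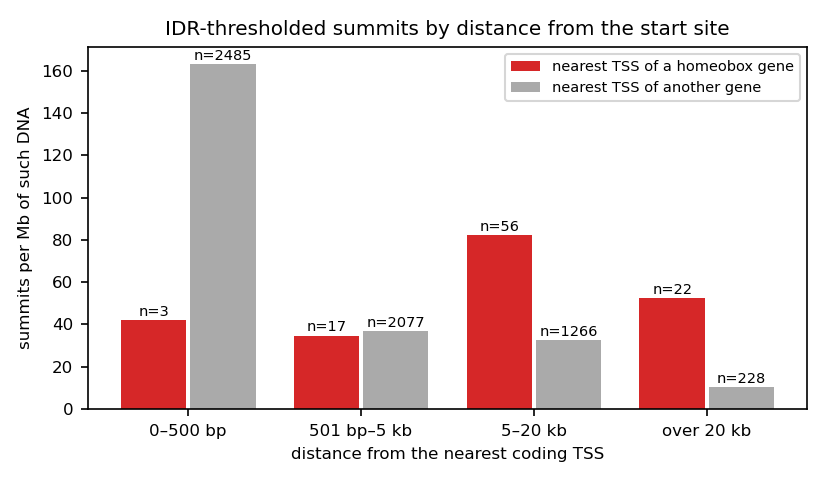
IDR-thresholded summits per Mb of DNA (vertical axis, from 0) by distance from the nearest coding TSS, for DNA nearest to a homeobox gene of the list (red) and to another gene (grey); n is the number of summits. Red bars are lower than grey within 500 bp (41.9 against 163 per Mb) and higher between 5 and 20 kb (82.3 against 32.7 per Mb).

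Several members with an empty locus had strong sites further out. The strongest was the summit in the gap between toe and eyg (3L, summit 12457492, signal 1424.6, rank 217), at rank 174 in replicate 1 and 250 in replicate 3. Both genes encode Pax-related factors of eye and thorax growth. vvl (ventral veins lacking), a POU gene of tracheae and the nervous system, had no summit in its locus and 9 downstream that were nearest to it, of which the strongest lay 33823 bp from its TSS (signal 920.6, ranks 482 and 564 in replicates 1 and 3). ems (empty spiracles), a head gap gene, likewise had none in its locus and 6 nearest to it, led by one 13992 bp downstream of its TSS (signal 672.4, ranks 1234 and 735). zfh2, which encodes a large factor with zinc fingers and homeodomains, had one 3898 bp upstream (signal 904.4), whose rank was 203 in replicate 1 and 2048 in replicate 3. oc, whose promoter summit was weak, had stronger sites 6064 bp upstream (signal 886.7) and 15752 bp downstream of its TSS (signal 747.3). Of the 56 summits outside every member locus, 22 were among the 3077 strongest peaks, against 50% of all 6102 summits outside member loci. The members with an empty locus that were nearest to at least 1 of these 22 numbered 7, and 9 were nearest to at least 1 of the 56. No such count was made for other genes with an empty locus.

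With weaker peaks the promoters of homeobox genes filled in. In the first 12000 peaks of the pooled list 16 members had a promoter summit (32%), against 36.9% of all coding genes and 48.3% at matched length. In the first 20000 it was 28 (56%), against 45.2% and 57.9%, and in all 30000 it was 38 (76%, Wilson 95% interval 62.6% to 85.7%), against 49.9% and 62.6%. The members were thus below matched genes at the strong end of the list and above them at its end. Over loci 38 members had a summit in the first 12000 (76%, against 53.6% and 68.7%), 43 in the first 20000 (86%, against 61.1% and 74.1%) and 46 in all 30000 (92%, against 64.7% and 76.2%). All 444 pooled peaks in member loci compare with 331.4 for the same number of other genes at matched length, and without hth the numbers were 340 and 321. The 52 of the IDR-thresholded list compare with 65.7, and without hth 39 with 63.8.

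**Figure D3:**
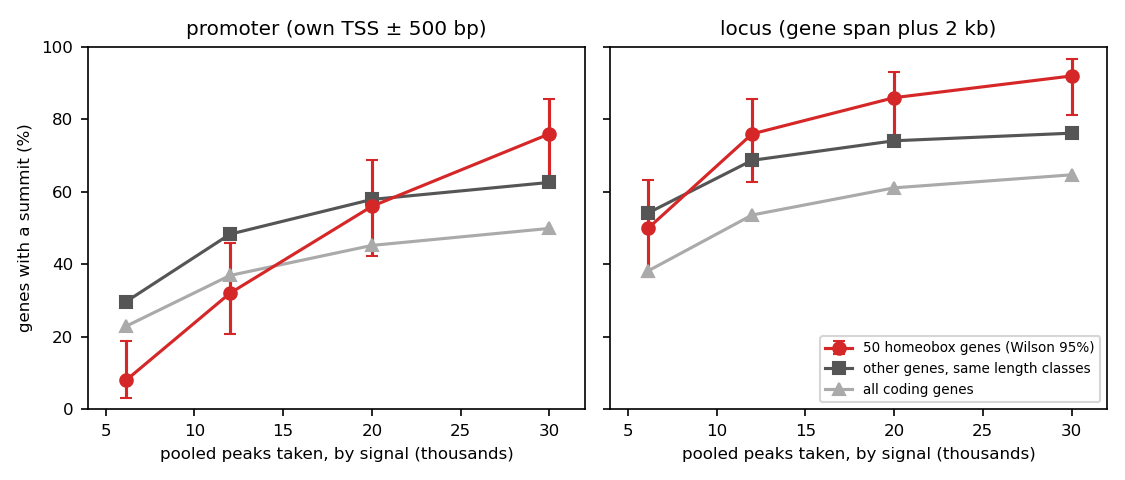
Percent of genes with a summit at a promoter (left) and in a locus (right) as more of the pooled list is taken in order of signal (horizontal axis, in units of 1000 peaks), for the 50 homeobox genes (red, Wilson 95% bars), other genes of the same length classes (dark grey) and all coding genes (light grey). At promoters the red line starts at 8% against 29.7% at matched length and ends at 76% against 62.6%.

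The replicates showed the low promoter share alike at the strong end of their lists, and differed at the weak end. Among the 6154 peaks of highest signal, promoter summits were found at 4 members in replicate 1, against 23.0% of all coding genes, and at 2 in replicate 3, against 22.3%. These were tin, so, exd and oc in replicate 1 and tin and so in replicate 3. Locus summits were found at 25 members in replicate 1 (50%), against 37.7% of all coding genes and 53% at matched length. In replicate 3 it was 24 members (48%), against 38.4% and 55.4%, and 21 members had one in both. With all 30000 peaks promoter summits were found at 37 members in replicate 1, against 50.6% of all coding genes and 62.9% at matched length, and at 29 in replicate 3 (58%), against 51.0% and 64.7%. The higher promoter share of members in the full lists was therefore present in the pooled list and in replicate 1 and absent in replicate 3. Locus summits in the full lists were found at 46 members in replicate 1 (92%), against 65.4% of all coding genes and 76.4% at matched length. In replicate 3 it was 45 members (90%), against 69.6% and 82.9%.

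Single summits in member loci were as repeatable as others. Of the 52, 43 were matched within 100 bp by a peak of the top 6154 in replicate 1 (82.7%) and 44 in replicate 3 (84.6%), against 83.7% and 85.2% of the other IDR-thresholded summits. In both replicates 37 were found (71.2%), against 71.3%, and in neither 2. Reads of both replicates made that list, which fixes part of this agreement. Of the 49 matched in both full lists, a pair of hth summits lay furthest from equal ranks. Summit 10521399 ranked 3563 in replicate 1 and 15090 in replicate 3, and summit 10598391 ranked 2737 and 9718.

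**Figure D4:**
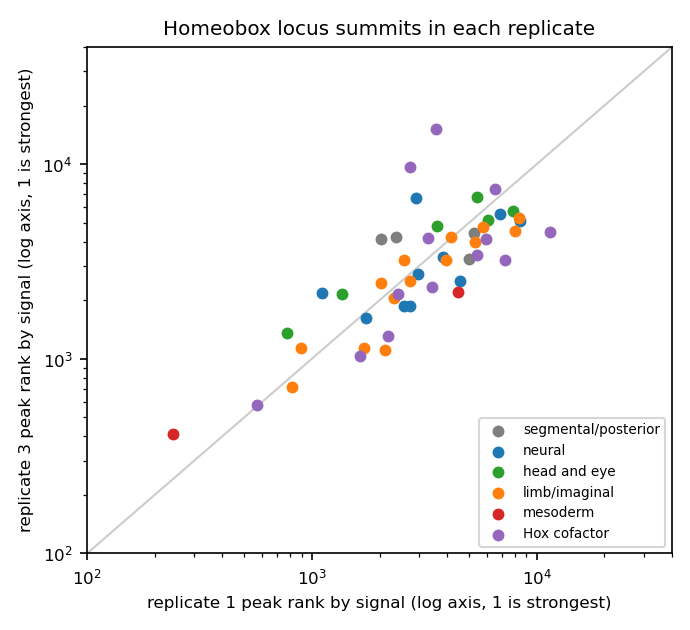
Rank by signal of member-locus summits in the list of replicate 1 (horizontal) and of replicate 3 (vertical), on log axes where 1 is the strongest peak of a list, for the 49 of 52 summits matched within 100 bp in both full lists; colours give the role of the gene and the grey line marks equal ranks. The tin promoter summit (ranks 242 and 412) leads both, and the hth summit at ranks 3563 and 15090 lies furthest from the line.

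Both Hox cofactor genes held a locus summit (2 of 2, against 54.2% at matched length), whereas among the top 6154 peaks of replicate 3 hth did and exd did not. hth (homothorax), whose protein brings Exd into the nucleus, is 132.0 kb long (3R:10507561-10639568, on the minus strand). Its locus held 13 summits, or 9.56 per 100 kb. The length class of hth averaged 1.92 summits per locus but holds shorter genes too. The strongest hth summit lay in a later intron (10537311, signal 896.7), at rank 572 in replicate 1 and 580 in replicate 3. Others lay in further introns (10626187, signal 532.3, and 10597771, signal 443.2) and 1910 bp upstream of a TSS (10641478, signal 357.8). The remaining 9 had signals from 141.1 to 294.5, none lay within 500 bp of a TSS, and 104 peaks of the pooled list lay in this locus. exd, 4.04 kb long, held the single promoter summit given above.

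In the IDR-thresholded list limb and imaginal genes had summits in their introns and flanks and at no promoter. In the full pooled list 10 of 11 had a promoter summit (90.9%, against 63.7% at matched length). The full list of replicate 3 did not share this. There ap, caup and ara had a promoter summit, and Dll, Lim1, mirr, al, B-H1, B-H2, C15 and Awh had none. The counts that follow are from the IDR-thresholded list. In 6 of 11 a locus summit was present (54.5%, against 56.8% at matched length), with 14 summits in all, and a promoter summit in 0 of 11, against 30.1%. Awh (Arrowhead), a LIM-homeobox gene of imaginal cells, was the densest member at 25.7 summits per 100 kb, with 5 summits. The strongest lay 16444 bp downstream of its TSS and just past the end of the gene (3L, 3862650, signal 770.6, ranks 815 and 720 in replicates 1 and 3). A first-intron summit followed (3855399, signal 635.5, ranks 897 and 1137), and the others had signals of 380.4, 322.0 and 187.7. Lim1, a LIM-homeobox gene of distal legs, had 3 summits in its first intron (signals 515.0, 494.2 and 179.5) and 1 downstream (238.2). caup, ara and mirr of the Iroquois group had 1, 2 and 1, with strongest signals of 365.3, 294.0 and 159.8, and B-H2 had 1 (212.1). Dll, ap, al, B-H1 and C15, which act in limb axes, had none, and their best pooled ranks were 8601, 21263, 6751, 9129 and 9737.

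Neural genes likewise had no promoter summit in the IDR-thresholded list, at 0 of 13, against 29.4% at matched length. In the full pooled list 11 of 13 had one (84.6%, against 62.4%), and the counts that follow are from the IDR-thresholded list. A locus summit was present in 7 of 13 (53.8%, against 56.5%). ct (cut), which specifies external sense organs, had 3, in introns at 441.5, 360.8 and 300.1, found in both replicates at ranks 1629 to 2959. otp (orthopedia), a gene of brain and hindgut, had 1 in a coding exon (2R, 20884578, signal 482.1, ranks 1105 and 2187), where the window was 39.6% A/T. The coding TSS nearest to this summit was that of Cib2, at 4648 bp, against 13006 bp for otp. Of the motor neuron genes, exex had 1 downstream (365.8) and Lim3 had 2 in its first introns (249.8 and 155.4). unpg had 1 downstream of the gene (263.8), and the POU genes nub and pdm2 had 1 each (205.2 and 141.7). HGTX, vvl, onecut, zfh2, pdm3 and scro had none. pdm3, of 68.8 kb, was the longest member without a summit, and its best pooled rank was 7118.

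Head and eye genes included 2 of the 4 with a promoter summit, so and oc, among 12 (16.7%, against 30.1%). A locus summit was present in 5 of 12 (41.7%, against 53.8%). Beside so and oc these were ro, ey and Optix. The summit counted for ro (rough), a photoreceptor gene, had a signal of 444.4 and lay 21 bp from the start of ms(3)K81. ey (eyeless), a Pax6 gene, had 1 in an intron (203.9), and its paralog toy had none, with a best pooled rank of 14001. Optix, another Six-family gene, had 2 weak ones (156.0 and 146.3) of which the first was 681 bp upstream of a TSS. The first ranked 6351 in replicate 1 and had no summit within 100 bp in replicate 3, and the second ranked 7851 and 5776. Among the top 6154 peaks the Optix locus held 0 summits in replicate 1 and 2 in replicate 3, the best at rank 4620. ems, eyg, toe, Rx, hbn and Gsc had none, and hbn was the only member without a peak in its locus in any of the lists.

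Of the mesoderm genes tin and lbl had a summit (2 of 6, 33.3%, against 46.6% at matched length), tin at its promoter (1 of 6, 16.7%, against 28.5%) and lbl in its intron (293.6). bap, lbe, slou and Six4, which act in gut muscle, muscle founders and gonad mesoderm, had none. slou had peaks only in the list of replicate 3, with a best rank of 24557. Of the segmental and posterior genes Ptx1 (301.7), cad (282.2) and inv (222.3, with 2 more) had summits (3 of 6, 50%, against 52.5%), all in introns, and no promoter did (0 of 6, against 29.8%). en, gsb and gsb-n had none, with best pooled ranks of 26997, 16344 and 11425. In the IDR-thresholded list no role class stood above its length-matched share at promoters except the 2 cofactor genes (1 of 2, against 30.5%). In the full pooled list neural genes (84.6%, against 62.4%), limb genes (90.9%, against 63.7%), head and eye genes (66.7%, against 63%), mesoderm genes (66.7%, against 59.7%) and both cofactor genes (against 62.9%) stood above it and segmental genes (50%, against 62.7%) below. The high limb share was absent in the full list of replicate 3, where only ap, caup and ara of the limb genes had a promoter summit. Classes of 2 to 13 genes gave wide intervals, such as 0% to 22.8% for the neural promoters.

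Some neighbouring paralogs had summits in the DNA between their spans, and others had none. No loci of a pair overlapped, so a summit could count for 1 gene of a pair only. Between en and inv, segment-polarity paralogs 14.3 kb apart with no coding gene wholly between, lay 2 summits (signals 249.4 and 175.9), 15133 and 14928 bp downstream of the en TSS, beside the 3 in inv. Replicate 3 held no match to the stronger of them. The 29.9 kb between toe and eyg held 4 summits (1424.6, 374.2, 325.3 and 276.2), all found in both replicates, whereas neither locus held any. B-H1 and B-H2, Bar genes of eye and leg 73.3 kb apart, had 7 summits between them, of which 1 counted in the locus of B-H2. The Iroquois genes caup and mirr, 71.8 kb apart, had 6 between them, led by a summit 34943 bp downstream of the caup TSS (signal 560.0, ranks 1220 and 1321), and ara and caup, 13.6 kb apart, had 1 (354.3). nub and pdm2, 29.0 kb apart, had 3 between their spans (178.3, 141.9 and 141.7). The first and second of these were nearest to the TSS of another gene, Ref2, at 4774 and 1855 bp, and the first ranked 3239 in replicate 1 and 12170 in replicate 3. The last lay 890 bp upstream of pdm2. None lay between gsb and gsb-n, 9.63 kb apart, lbl and lbe, 7.44 kb apart, or tin and bap, 6.91 kb apart. These were the shortest gaps among the pairs, and counts were not scaled to gap length. Among hbn, Rx and otp, neighbours on 2R, the exon summit of otp was the only one, and the gaps from lbl to C15 and from C15 to slou held 2 and 3, including one 580 bp upstream of sp3 (signal 839.0).

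**Figure D5:**
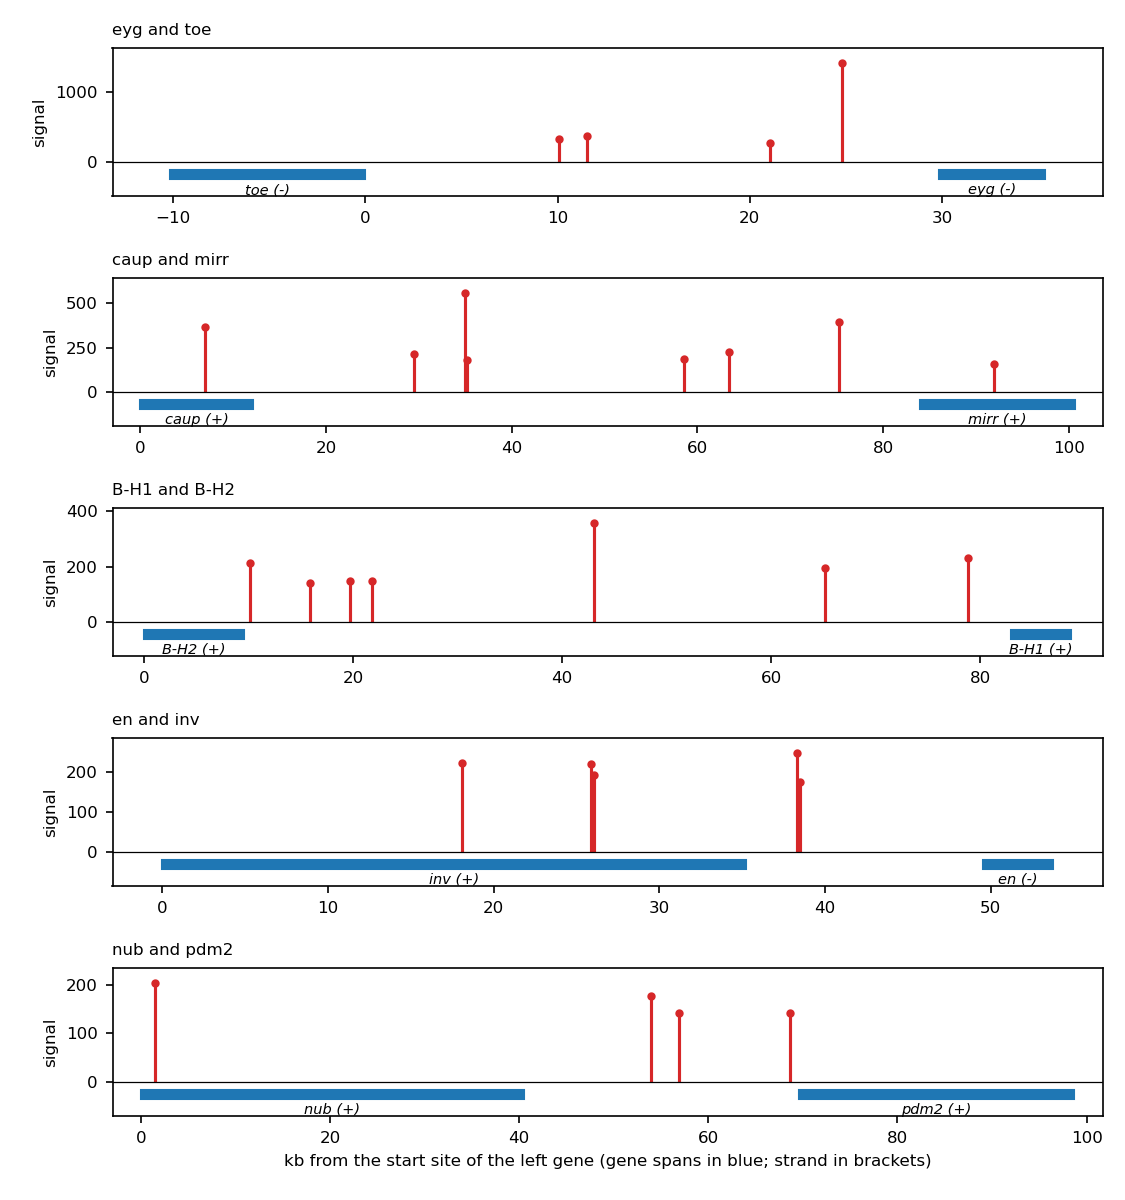
IDR-thresholded summits (red, height is signal on the authors' scale) in 5 pairs of neighbouring homeobox paralogs, with gene spans in blue and distance in kb from the start site of the left gene. The toe and eyg spans are empty while the gap between them holds 4 summits, the highest at 1424.6, and B-H2 and B-H1 have 7 between their spans.

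Other homeobox genes, listed by name, showed a promoter share between that of the members and that of other genes. The list included bcd, which lies in the Antennapedia complex, and the others lie outside Hox. Such a summit was found at 5 of 32 (15.6%, Wilson 95% interval 6.86% to 31.8%), against 28.6% at matched length. They were NK7.1, bcd, H2.0, PHDP and vnd. A locus summit was present at 20 of 32 (62.5%, interval 45.3% to 77.1%), against 50.3% at matched length. The strongest stood in the loci of zfh1 (signal 1108.5), a mesoderm factor, NK7.1 (848.3, with 8 summits in all) and pros (813.0), a neural fate gene. In the full pooled list 14 of the 32 had a promoter summit (43.8%), against 60.3% at matched length. Their share thus also grew with weaker peaks, and it stayed below matched genes in the full lists of replicate 1 (50%, against 60.8%) and replicate 3 (53.1%, against 62.1%).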

How the data were processed

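Peak lists on dm6 were used as deposited. Per the submitters' file records, lists were called from each replicate and from both pooled, with a control alignment, and a last list was IDR-thresholded. Chromatin was sonicated to 200 to 800 bp, per the labels. Aligner, caller and versions are not given in the sources used here. Per peak, the authors deposited a signal score, a summit offset and a −log10 q value. The −log10 q value, deposited by the authors, was 4.33 for every IDR-thresholded peak and ranked nothing. Gene models were Ensembl release 115 on the same assembly. In 3 peaks the summit lay past the interval and was kept.

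Length-matched shares are means over genes outside the list in the 10 length classes, weighted by the members in each. The members, roles and lists were chosen with earlier results of these data known. Every member was counted. Named in full were the 10 members with the strongest locus summit, those with a promoter summit, the 5 with most summits and pairs within 50 kb. Other pairs and summits outside loci were named after their values were seen. Counting was tested on simulated data. Python 3.11.15, pandas 2.3.3 and scipy 1.17.1 were used. Replicates count as separate collections only as far as the labels number them.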

Additional observations from a re-analysis of the deposited data

How the results depend on the processing

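The low promoter share of the members against other genes of the same length held with the 3077 strongest peaks (2 members), with promoter windows of 250 bp (1 member) and 1000 bp, with overlap of the peak interval in place of the summit, and in each replicate alone (2 to 4 members), and it did not hold in the full lists. There 38 members had a promoter summit in the pooled list, 37 in replicate 1 and 29 in replicate 3, and only in the last of these was the share below that of matched genes. Locus counts were 14 with the 3077 strongest peaks, 16 without flanks, 9 for genes with 2 or more summits, 24 to 25 in single replicates, and 46, 46 and 45 in the full lists of the pooled reads, replicate 1 and replicate 3. The share of member-locus summits near any coding TSS ran from 6.67% to 11.3% among the top 6154 peaks of single replicates. In the full lists it was 14.9% in replicate 1 and 12.6% in replicate 3. In the full pooled list, where 49.9% of all coding genes had a promoter summit and 64.7% a locus summit, the shares were 50% and 100% for segmental genes (against 62.7% and 76.3% at matched length), 84.6% and 92.3% for neural (62.4% and 76%), 66.7% and 83.3% for head and eye (63% and 76.6%), 90.9% and 100% for limb (63.7% and 77.5%) and 66.7% and 83.3% for mesoderm genes (59.7% and 73.1%), and 100% at both for the cofactors (62.9% and 76.4%). Among the top 6154 peaks of single replicates the cofactors ran from 0% to 50% at promoters and from 50% to 100% over loci. In the full list of each replicate both cofactors had a promoter summit. Of the limb genes, only ap, caup and ara had a promoter summit in the full list of replicate 3. Counting second roles moved no role class beyond its interval. In 53 comparisons of a group count or share with an alternative, those above included, the value stayed within 1.5 times or within its interval. In 24 it did not. The matching on TSS number, the assignment to the nearest TSS, the count of genes with several summits and the replicate and pooled values per role were added after the data were seen. The number of summits in single member loci moved by over 1.5 times in 170 of 300 cases, most of them in the longer lists. No paired analysis was possible because the replicates formed 1 group. Read depth is unknown, so an empty locus means no peak in these lists, not an absence of binding.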
